A study of Rattus norvegicus with 12 samples.

Results

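Keratins of the urothelium, the epithelium that lines the bladder, were followed in rat bladders that had lost their nerve supply. The set was 10 keratin genes chosen by symbol: Krt5, Krt14, Krt15 and Krt17 of basal cells, Krt13 of intermediate layers, the simple keratins Krt7, Krt8, Krt18 and Krt19, and Krt20 of superficial cells. Of these, 9 were measured among 18166 genes, each by a single probe set that carries its symbol alone. Krt5 was not analysed here, since none of the probe sets used carries its symbol alone. The tissue was whole urinary bladder of female Sprague Dawley rats of about 3 months. In the 6 denervated samples, taken 10 days after the operation, the ganglia that supply the bladder had been frozen on both sides, and the 6 sham samples came from rats that had surgery without freezing. The time from sham surgery to sampling is not given in the sources used here. Whether each array is a separate rat is not stated either, and p-values then cover only the spread between these samples, which may be technical.

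Keratins are intermediate filament proteins that assemble in pairs, 1 acidic type I chain with 1 basic type II chain. Krt8 pairs with Krt18, and Krt5 with Krt14 in basal cells of stratified epithelia. In the urothelium, small basal cells sit on the basement membrane below intermediate cells, and large superficial (umbrella) cells face the urine, carry uroplakin plaques and make Krt20. Krt17 is also known from injured and stressed epithelia.

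Values are log2 expression values of the authors' table, in which array medians lay between 5.82 and 5.90. The labels describe the cells as over 95% smooth muscle, yet urothelial markers were bright, with Krt7 means of 11.1 in denervated and 11.5 in sham bladders and Upk2 means of 11.9 in denervated bladders. Whole tissue was measured, so a smaller share of urothelial cells in the tissue and less RNA per cell cannot be told apart. Denervated replicate 2 was unlike the rest of its group: its first principal component over all genes was -5.84, where its 5 companions had 25.9 to 42.5 and sham arrays -30.2 to -22.5. Values without this array are given where they matter.

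The keratins did not move as a block. After denervation Krt14 rose, Krt20 and all 4 simple keratins fell, and Krt15, Krt17 and Krt13 were not called (limma, adjusted p under 0.05 over all 18166 genes). In all, 6 of 9 were called, beside 28.7% of all genes: 1 higher and 5 lower, beside 11.9% and 16.9% of all genes. The median change of the 9 was -0.44, beside -0.04 over all genes. By layer, 1 of 3 measured basal keratins rose and 0 fell, 0 of 4 simple keratins rose and 4 fell, and the only superficial one fell. The denervated arrays lay wholly below the sham arrays for 5 of the 9, beside 7.59% of all genes, and wholly above them for 0 of the 9, beside 5.76%.

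**Figure D1:**
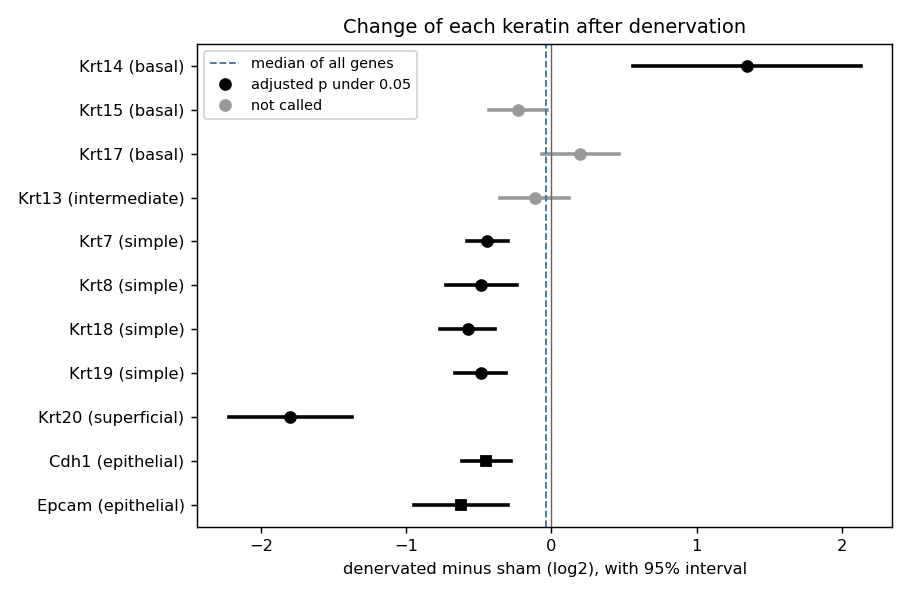
Change of each keratin between denervated and sham bladders on the log2 scale (x axis) with its 95% interval, for 9 keratins and the epithelial genes Cdh1 and Epcam; black marks passed the test. Krt14 lies at 1.35, the simple keratins between -0.58 and -0.44, and Krt20 at -1.80, while the dashed line marks the median of all genes at -0.04.

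Among the basal keratins, Krt14, the type I partner of Krt5, had a lowest, median and highest value of 6.45, 7.89 and 8.71 in denervated bladders, against 5.82, 6.41 and 7.48 in sham bladders. Denervated arrays exceeded the highest sham array in 5 of 6 cases, and denervated replicate 2, at 6.45, lay within the sham range. Krt14 averaged 7.85 ± 0.84 in denervated and 6.50 ± 0.58 in sham bladders (SD, n = 6 each). It rose by 1.35 ± 0.36 (SE) or 2.55-fold, with a 95% interval of 0.56 to 2.13 (adjusted p = 0.0135). Krt14 also had the widest spread of the 9 keratins within both groups, with ranges of 2.26 in denervated and 1.66 in sham arrays.

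Krt15, another type I keratin of basal cells, had values of 10.50, 10.90 and 11.05 (lowest, median, highest) in denervated bladders, against 10.95, 11.08 and 11.22 in sham bladders. Its change of -0.23 ± 0.09 was not called (adjusted p = 0.0775), although all 6 denervated values lay below the sham mean. It was called without denervated replicate 2 (-0.27, adjusted p = 0.0378). Krt17 had values of 5.30, 5.85 and 6.04 in denervated bladders, against 5.46, 5.50 and 5.91 in sham bladders, and its change of 0.20 ± 0.12 was not called (adjusted p = 0.253). Denervated replicate 2 held the lowest value of all 12 arrays, and without it the change was 0.30 and was called (adjusted p = 0.0230). Krt17 was dim, with a mean of 5.70 close to the array medians, so small changes of it are hard to see.

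Krt13, a type I keratin of the layers above the basal cells, had values of 5.87, 6.09 and 6.43 in denervated bladders, against 6.07, 6.24 and 6.43 in sham bladders. The groups overlapped, and the change of -0.11 ± 0.11 was not called, with a 95% interval of -0.35 to 0.12 (adjusted p = 0.491). Krt13 was dim as well, with means of 6.13 in denervated and 6.24 in sham bladders.

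**Figure D2:**
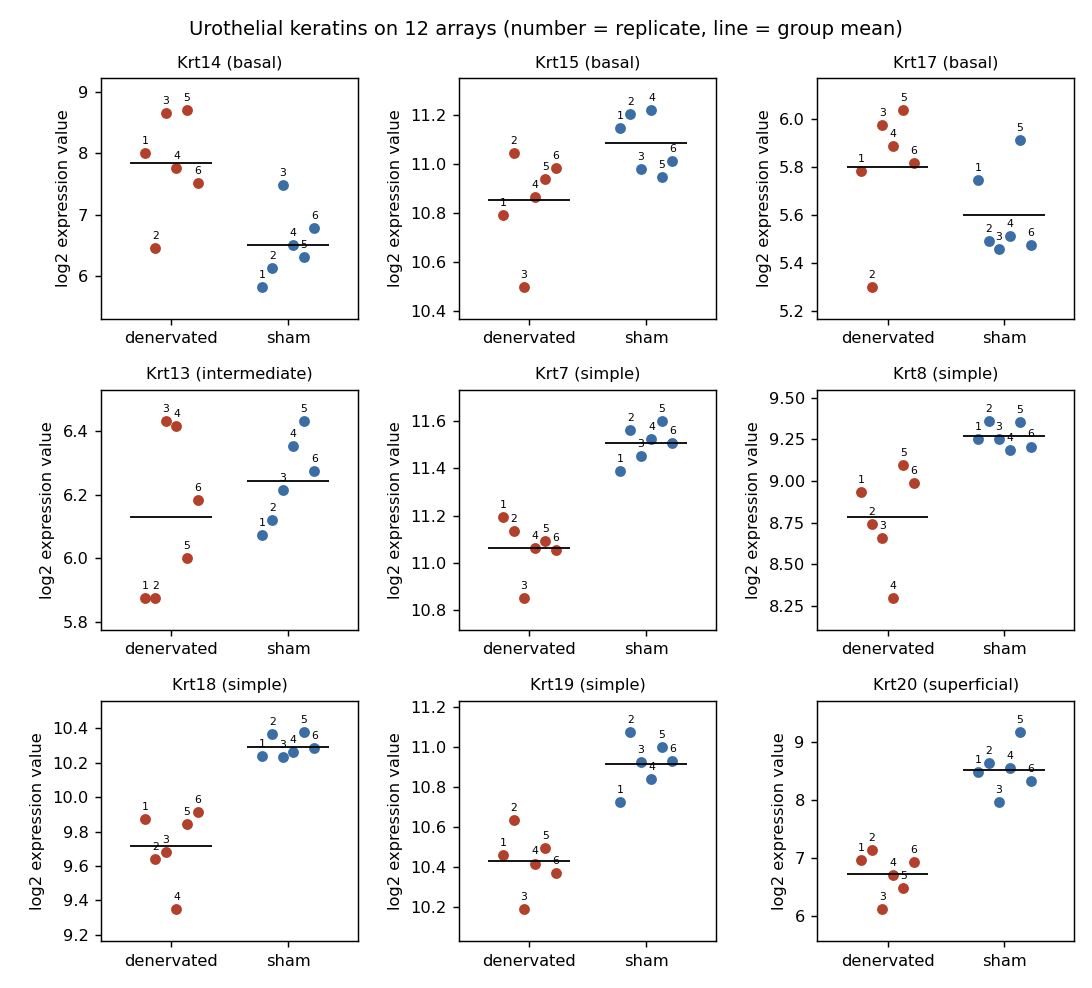
Log2 expression values of the 9 keratins on each of 12 arrays, denervated to the left of sham, with replicate numbers at the points and lines at the group means; each panel has its own y axis. The groups separate fully for Krt7, Krt8, Krt18, Krt19 and Krt20, and denervated replicate 2 is the low point for Krt14 (6.45) and Krt17 (5.30).

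The 4 simple keratins all fell, with changes between -0.58 and -0.44. Krt7, the type II simple keratin of the whole urothelium, had a lowest, median and highest value of 10.85, 11.08 and 11.19 in denervated bladders, against 11.39, 11.52 and 11.60 in sham bladders. It fell by 0.44 (SE 0.07, adjusted p = 0.000430). Krt19, a type I keratin that lacks most of the usual tail, had 10.19, 10.44 and 10.64 in denervated and 10.73, 10.93 and 11.07 in sham bladders, and fell by 0.49 (SE 0.08, adjusted p = 0.000816). For both, every denervated array lay below every sham array.

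Krt8 and Krt18, which form the filament pair of simple epithelia, fell together. Krt8 had values of 8.30, 8.84 and 9.10 in denervated bladders, against 9.19, 9.25 and 9.36 in sham bladders, and fell by 0.48 (SE 0.11, adjusted p = 0.00668). Krt18 had 9.35, 9.76 and 9.92 in denervated and 10.23, 10.27 and 10.37 in sham bladders, and fell by 0.58 (SE 0.09, adjusted p = 0.000556). Again no value was shared between the groups. The denervated arrays were spread far more widely than the sham arrays for this pair, with a range for Krt8 of 0.80 in denervated and 0.17 in sham arrays, and for Krt18 of 0.57 in denervated and 0.14 in sham arrays.

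The 2 genes kept close to each other. The difference of Krt18 from Krt8, with the sham means taken off, lay between -0.28 and 0.03 in denervated arrays and between -0.04 and 0.05 in sham arrays. Set against the sham mean, denervated replicate 4 was lowest for both, at -0.97 for Krt8 and -0.94 for Krt18. Denervated replicate 2 stood at -0.53 for Krt8 and -0.66 for Krt18, and denervated replicate 3 at -0.61 for both. Replicates 1, 5 and 6 held the 3 smallest falls of each gene, from -0.33 to -0.17 for Krt8 and from -0.45 to -0.38 for Krt18. The change of Krt18 minus that of Krt8 was -0.09 ± 0.05, with a 95% interval of -0.20 to 0.01 (exact two-sided permutation p = 0.0584, n = 6 each). Krt7 and Krt19 did not follow this order. Their lowest denervated array was replicate 3, at -0.66 for Krt7 and -0.73 for Krt19, and replicate 4 stood at -0.45 for Krt7 and -0.50 for Krt19.

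**Figure D3:**
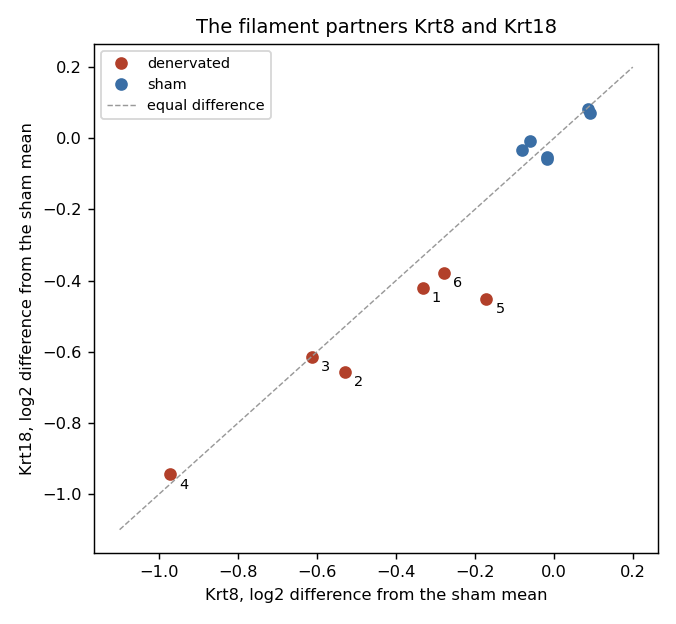
Log2 difference from the sham mean for Krt8 (x axis) and Krt18 (y axis) on each of 12 arrays, with denervated replicates numbered. The points lie near the dashed line of equal difference, with denervated replicate 5 farthest below it, at -0.17 and -0.45. Denervated replicate 4 is lowest, at -0.97 and -0.94, and all sham arrays lie between -0.08 and 0.09.

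The promoters of this pair are shown because the genes are neighbours on rat chromosome 7 and moved together. Among the members, only Krt5, Krt8, Krt18 and Krt20 had a promoter sequence in the source used, so Krt7 and Krt19 could not be shown. They run from 250 bases before to 50 bases after the annotated gene start (RefSeq, GRCr8), at chr7:135010290-135010589 on the minus strand for Krt8 and chr7:135035918-135036217 on the plus strand for Krt18. Capitals mark matches, on either strand, to any of 6 motifs searched: TATAAA for the box bound by the general initiation machinery, CCAAT for the element recognised by nuclear factor Y, GGGCGG for the core recognised by Sp1, AGATAA for factors such as Gata3, TGANTCA for Jun and Fos dimers (AP-1), and a PPAR element made of AGGTCA repeated in the same direction with 1 free base between.
Krt8: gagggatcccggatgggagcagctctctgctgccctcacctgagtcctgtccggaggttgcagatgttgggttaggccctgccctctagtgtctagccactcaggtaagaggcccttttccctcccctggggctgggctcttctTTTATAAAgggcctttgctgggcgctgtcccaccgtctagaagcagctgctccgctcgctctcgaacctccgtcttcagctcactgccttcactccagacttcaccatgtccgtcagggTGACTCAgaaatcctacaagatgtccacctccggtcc
Krt18: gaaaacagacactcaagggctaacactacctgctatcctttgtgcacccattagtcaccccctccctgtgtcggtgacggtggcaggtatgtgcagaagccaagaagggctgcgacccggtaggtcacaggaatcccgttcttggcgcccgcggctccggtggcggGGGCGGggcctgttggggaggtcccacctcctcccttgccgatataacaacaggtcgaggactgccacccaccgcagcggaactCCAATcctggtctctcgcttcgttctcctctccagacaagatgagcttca
The Krt8 window holds TATAAA on both strands, overlapping, from 106 bases before the start. It also holds 1 TGANTCA, a palindrome read on both strands, 13 bases after the start. In this window the annotated start falls on the letters atg, those of a start codon. The TGANTCA match may therefore lie in coding sequence, and neither distance need run from the start of transcription. The Krt18 window holds GGGCGG 84 bases before the start and CCAAT at the start itself, and the pair shared none of the 6 motifs. Of 33469 rat promoters, 14.2% hold TATAAA, 7.33% TGANTCA, 33.1% GGGCGG and 37.5% CCAAT. These matches describe letters only.

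Krt20, the type I keratin of superficial cells, fell most. Its lowest, median and highest values were 6.12, 6.82 and 7.13 in denervated bladders, against 7.96, 8.52 and 9.16 in sham bladders. It averaged 6.72 ± 0.37 in denervated and 8.52 ± 0.39 in sham bladders (SD, n = 6 each), a fall of 1.80 on the log2 scale (SE 0.20, 3.48-fold lower, adjusted p = 9.23e-05). Every denervated array, replicate 2 included, stood at -1.39 or lower against the sham mean, and the deepest, replicate 3, at -2.40. Within the groups its spread was alike, with ranges of 1.01 in denervated and 1.20 in sham arrays. The promoter of this most changed keratin lies at chr10:84890236-84890535 (GRCr8, minus strand, RefSeq), with the only motif match of the same search in capitals.
Krt20: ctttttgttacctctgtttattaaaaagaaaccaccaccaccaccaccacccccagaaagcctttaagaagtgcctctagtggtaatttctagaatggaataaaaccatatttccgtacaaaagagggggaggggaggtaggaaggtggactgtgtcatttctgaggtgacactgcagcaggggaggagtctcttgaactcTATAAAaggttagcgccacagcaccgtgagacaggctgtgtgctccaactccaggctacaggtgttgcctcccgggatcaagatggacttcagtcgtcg
That match is a TATAAA that begins 49 bases before the annotated start. AGATAA, held by 11.6% of rat promoters, and the PPAR element, held by 0.0538%, have no match in any of the 3 windows shown.

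To see whether the keratins changed by another amount than 1 general epithelial gene, each was set against the E-cadherin gene Cdh1 within every array. E-cadherin is an adhesion protein of epithelial cells. Cdh1 does not stand for the whole epithelium, since general epithelial genes changed by -0.64 to -0.04. Cdh1 itself fell by 0.45 (SE 0.08, adjusted p = 0.00113), with means of 9.92 in denervated and 10.4 in sham bladders. Relative to Cdh1, Krt20 fell by a further 1.35 (SE 0.18, 95% interval -1.75 to -0.95), with all 6 denervated arrays below all 6 sham arrays (exact two-sided permutation p = 0.00216, n = 6 each, the smallest this design can give). The 4 simple keratins lay between -0.13 and 0.01 relative to Cdh1 and were not called. Their 95% intervals were -0.12 to 0.14 for Krt7, -0.29 to 0.22 for Krt8, -0.36 to 0.10 for Krt18 and -0.17 to 0.09 for Krt19. Differences from Cdh1 of sizes within these intervals remain possible with these 12 arrays.

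The basal keratins lay above Cdh1. Relative to it, Krt14 stood at 1.80 ± 0.47 (95% interval 0.75 to 2.84, exact two-sided permutation p = 0.00649, n = 6 each). Krt17 stood at 0.65 ± 0.18 (0.25 to 1.04, exact p = 0.0108) and Krt15 at 0.22 ± 0.07 (0.07 to 0.37, exact p = 0.00866), while Krt13, at 0.33 ± 0.17, was not called (exact p = 0.0866), though it was without denervated replicate 2 (0.43, adjusted p = 0.0123). In all, 4 of 9 keratins were called by limma relative to Cdh1, beside 77.8% of all genes. Since Cdh1 itself fell, most genes lay above it: 3 of 9 keratins were called higher beside 75.9% of all genes, a share below the background, and 1 of 9, Krt20, was called lower beside 1.9%. The call of Krt15 was lost under several alternatives, with adjusted p up to 0.0839.

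**Figure D4:**
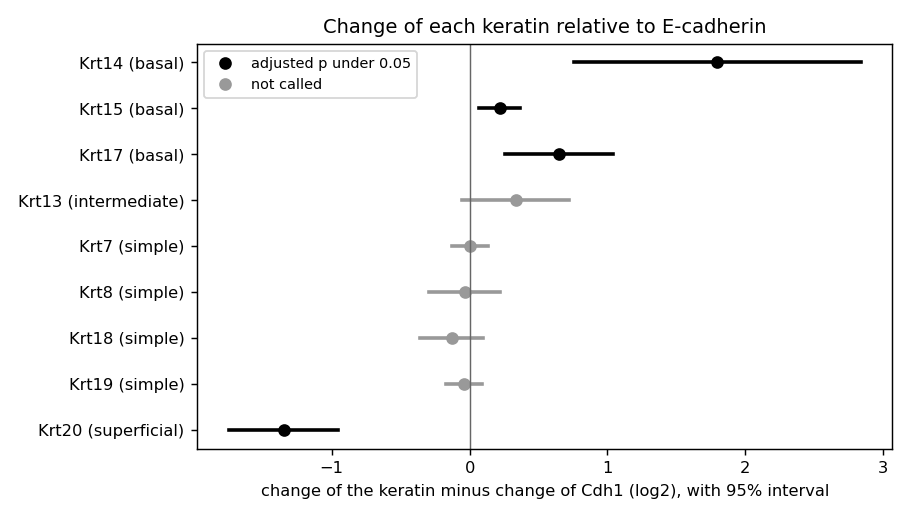
Change of each keratin minus the change of Cdh1 on the same arrays (x axis, log2), with 95% intervals from each gene's own spread over 12 arrays; black points passed limma's test over all genes. The 4 simple keratins lie between -0.13 and 0.01, Krt14 lies at 1.80 and Krt20 at -1.35.

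Set against the simple keratin Krt8 in place of Cdh1, the order was much the same. Krt20 fell by 1.31 more than Krt8 (SE 0.23, 95% interval -1.83 to -0.80, exact two-sided permutation p = 0.00216, n = 6 each). Krt14 exceeded Krt8 by 1.83 ± 0.42 (0.89 to 2.77, exact p = 0.00433) and Krt17 by 0.68 ± 0.17 (0.31 to 1.05, exact p = 0.00216). Of the 8 other keratins, 3 were called relative to Krt8, beside 67.8% of all genes: 2 higher and 1 lower, beside 66.6% and 1.12%. Krt15, called higher relative to Cdh1, was not called relative to Krt8 (0.25 ± 0.14, exact p = 0.104). Krt13 (0.37 ± 0.21, exact p = 0.115), Krt7 (0.04 ± 0.12) and Krt19 (-0.01 ± 0.13) were not called either.

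Krt14 and proliferation genes were low on the same denervated array and high on the same sham array. As a difference from the sham mean, the average of 8 proliferation genes, among them Mki67 and Top2a, was 0.22 in denervated replicate 2 and between 1.60 and 2.10 in its 5 companions. Krt14 was -0.06 in that array and between 1.01 and 2.20 in the 5 others. Among sham arrays, replicate 3 was highest for both, at 0.97 for Krt14 and 1.09 for the proliferation genes. The remaining 5 sham arrays spanned -0.69 to 0.27 for Krt14 and -0.42 to 0.22 for the proliferation genes. Without denervated replicate 2 Krt14 rose by 1.63 (adjusted p = 0.000892), and without sham replicate 3 by 1.54 (adjusted p = 0.00722). Some other values were also at an extreme in these arrays, though not always in both. In denervated replicate 2 the Schwann cell mean fell least, at -0.71, where its 5 companions had -2.15 to -1.61. Smooth muscle fell least there too (-0.07, companions -0.79 to -0.31). Macrophages (1.12, companions 1.20 to 1.76) and endothelium (0.26, companions 0.44 to 0.61) rose least there. The uroplakin (-0.53) and simple keratin (-0.46) means were not extreme in that array. The mean of 6 fibroblast genes was lowest in denervated replicate 2 (-0.12), but replicate 6 was close, at -0.01. Its 5 companions spanned -0.01 to 0.57. Among sham arrays the fibroblast mean was highest in replicate 3 (0.15). Cdh1 had its smallest fall in denervated replicate 2 (-0.21), while sham replicate 3, at -0.01, lay inside the span of the sham arrays (-0.06 to 0.08). The part of any of these in the Krt14 result was not tested. Krt20 had its smallest fall in denervated replicate 2, at -1.39, which still lay below every sham array. Among sham arrays Krt20 was lowest in replicate 3, at -0.56, where Krt14 was highest.

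**Figure D5:**
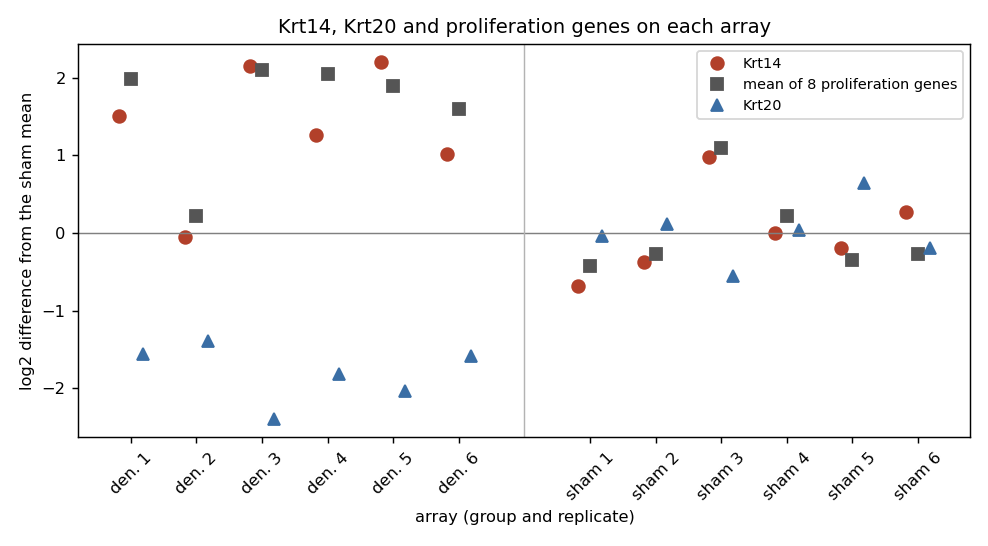
Log2 difference from the sham mean for Krt14, Krt20 and the mean of 8 proliferation genes (y axis) on each array (x axis), denervated arrays on the left. Krt14 and the proliferation genes are low together in denervated replicate 2 (-0.06 and 0.22) and high together in sham replicate 3 (0.97 and 1.09), while Krt20 lies at or below -1.39 in all 6 denervated arrays.

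By deviation from the own group mean over 12 arrays, the genes most like Krt20 were Mir336 (a microRNA precursor, Pearson r = 0.94), the DNA repair gene Nhej1 (0.91), the tensin Tns4 (0.90), Rab11fip1, which binds the recycling GTPase Rab11 (0.90), and the aryl hydrocarbon receptor Ahr (0.89). Of these, Rab11fip1 fell after denervation (-0.54, adjusted p = 0.00166). Those most like Krt14 were Armcx2 (0.96), Mir376a (0.95), Txndc5, a disulfide isomerase of the endoplasmic reticulum (0.95), Spon1, a secreted matrix protein (0.94), and Lhfpl3 (0.94). Spon1 (1.88), Txndc5 (0.60) and Armcx2 (0.38) rose, with adjusted p of at most 0.00800. These are the 5 highest of all genes for each keratin and so are high by choice, the arrays share 1 normalization, and no p is given.

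Of the 38 further keratin genes measured, 0 were called higher and 4 lower, beside 11.9% and 16.9% of all genes, and their median change was -0.03. Of these, 19 lay in the dimmest 25% of all genes, where a change is hard to see. Krt80, a type II keratin of epithelial cells near their junctions, fell by 0.81 (SE 0.10, adjusted p = 0.000173), with means of 7.11 in denervated and 7.93 in sham bladders and no overlap between the groups. Relative to Cdh1 it fell by 0.37 (SE 0.09, exact two-sided permutation p = 0.00216, n = 6 each). Krt23 (-0.37), Krt12 (-0.33) and Krt40 (-0.29) were dim, with sham means of 5.71 to 5.80, and the call of Krt12 was lost in 8 of the alternatives. Of 12 measured genes of squamous and stress keratinisation, 0 rose and 1 fell, Sprr1a, a small proline-rich protein of the cornified envelope (-0.42 ± 0.07, adjusted p = 0.00115). The list had 18 genes, and Krt6a, Krt6b and Krt16 were among those not measured. Of the 12 measured, 3 lay in the dimmest 25% of all genes. Krt4, the usual type II partner of Krt13, stood at -0.21 ± 0.13 and was not called (adjusted p = 0.270).

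Genes that work with the keratins fell in part. All 6 uroplakin genes fell, with a median of -0.63. Lowest were Upk3b (-0.83), which is also a gene of mesothelium, and the plaque proteins of superficial cells Upk2 (-0.76), Upk1b (-0.64) and Upk1a (-0.62). Relative to Cdh1, where Krt20 stood at -1.35, Upk2 (-0.31) and Upk1b (-0.19) were called lower, beside 1.9% of all genes. Upk1a (-0.17) and Upk3a (-0.04) were not called relative to Cdh1. Relative to Krt8, none of Upk1a, Upk1b, Upk2 and Upk3a was called. Of 14 measured urothelial transcription factors and signals, 10 fell and 0 rose (median -0.40). Grhl3, a factor of superficial cell differentiation in mice, fell by 0.88, Shh, a signal of basal cells in mice, by 0.62, the nuclear receptor Pparg by 0.60 and Ovol1 by 0.50. Tp63, the factor of basal cells, also fell, by 0.38 (SE 0.11, adjusted p = 0.0206). Of 16 general epithelial genes, 12 fell and 0 rose (median -0.44), with Prss8 (-0.64), Spint1 (-0.63), Epcam (-0.62) and Rab25 (-0.52) lowest. Over all genes 16.9% were called lower.

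Where keratin filaments anchor to desmosomes, 4 of 11 measured genes fell and 1 rose, beside 16.9% called lower and 11.9% called higher over all genes. The plakins Ppl (-0.67) and Evpl (-0.65), which link keratins to the cell edge in upper layers, fell, as did Perp (-0.38), and Jup was called at -0.20, a call lost in 10 alternatives (adjusted p up to 0.0937). Dsg3, a desmosomal cadherin of basal and lower layers in stratified epithelia, rose by 1.23 ± 0.31 (adjusted p = 0.00890), with means of 5.66 ± 0.84 in denervated and 4.42 ± 0.16 in sham bladders (SD, n = 6 each). All 6 denervated values of Dsg3 lay above all 6 sham values, but it was dim in sham bladders, below the array medians, so the size of its rise is uncertain. Dsg3 did not follow Krt14 from array to array, being highest in denervated replicate 6 (2.72 above the sham mean), where Krt14 stood at 1.01. Of 7 hemidesmosome genes, which fix basal cells to their matrix, 3 fell and 0 rose, namely Itgb4 (-0.43), Lama3 (-0.32) and Col17a1 (-0.29), whose call was lost in 13 alternatives (adjusted p up to 0.104). Of 9 genes for binding and handling keratins, Fam83h (-0.33) and Tchp (-0.27) fell and Casp6, a caspase that cuts Krt18, rose by 0.32, shares close to those over all genes.

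Among 13 other intermediate filament genes, 2 rose and 2 fell, close to the shares over all genes (11.9% higher, 16.9% lower). Lmnb1, a nuclear lamin (0.99), and Vim, of mesenchymal cells (0.60), rose. Nefl, of neurons (-2.23), and Synm, of muscle (-0.97), fell. Mesothelial cells of the serosa also make simple keratins. Of 8 measured mesothelial genes, 1 rose (Wt1, 0.87) and 1 fell (Upk3b, -0.83), again close to those shares. The list mean ranged from -0.77 to 0.56 in denervated arrays and from -0.15 to 0.14 in sham arrays. The simple keratins had a mean of -0.72 to -0.36 in denervated arrays and -0.09 to 0.09 in sham arrays. Denervated replicate 1, where the mesothelial mean was highest, had a simple keratin mean of -0.38, and replicate 6, where it was lowest, had -0.41. Calb2 and Bnc1 were dim, at 3.39 and 4.68 in denervated arrays, and the part of mesothelium was not tested.

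The counts for the remaining cells of the wall stand beside 11.9% called higher and 16.9% called lower over all genes. In macrophages, 6 of 6 marker genes rose, with a list mean, as a difference from sham, of 1.12 to 1.76 in denervated arrays and -0.09 to 0.12 in sham arrays. Cd68 (2.20), Lyz2 (2.11), Cybb (1.78) and Adgre1 (1.39) led. Of 8 proliferation genes 7 rose, led by Mki67 (2.59), Rrm2 (2.50), Top2a (2.10) and Aurkb (1.67). Of 6 fibroblast genes 2 rose (Col1a1, 0.60, and Dpt, 0.18), but the call of Dpt was lost in 11 alternatives and the count lay between 1 and 5. Of 3 endothelial genes 1 rose (Cdh5, 1.00). Of 9 smooth muscle genes, 6 fell and 1 rose (Smtn, 0.51), with Mylk and Synpo2 (both -0.99), Myocd (-0.89) and Lmod1 (-0.75) lowest. Of 4 Schwann cell genes, 4 fell, namely Scn7a (-3.15), Cdh19 (-2.21), S100b (-0.84) and Sox10 (-0.36), and the call of Sox10 was lost in 12 alternatives (adjusted p up to 0.106). Smooth muscle means lay between -0.79 and -0.07 in denervated arrays and between -0.08 and 0.12 in sham arrays. The share of each cell type in the tissue was not measured, and its part in the keratin changes was not tested.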

How the data were processed

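RNA labelled as denervated or sham rat bladder was read on 12 arrays, 6 per group. The authors deposited log2 values of 36685 probe sets by 12 arrays, made by RMA (background correction, quantile normalization, probe summary) in Affymetrix Expression Console 1.4.1.46, per the submitters' processing notes. No genome build, batch or scan date is given in the sources, and precision is limited by the number of arrays. Of 19086 named probe sets, 18511 carry 1 gene symbol. The brightest per symbol gave 18166 genes, with names from RefSeq (GRCr8).

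Groups were compared with limma 3.58.1 in R 4.3.3 (lmFit, eBayes, two-sided). P-values were adjusted by Benjamini-Hochberg across the 18166 genes and called under 0.05. Differences from Cdh1 and Krt8 were fitted likewise on within-array differences. Because those share the spread of 1 gene, exact permutation tests over 924 splits, unadjusted, and intervals from each gene's own spread (10 degrees of freedom) stand beside them. The planned test relative to Krt5 was not possible, and likeness was taken to Krt14 in its place.

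Members, 15 gene lists and layers were chosen with earlier results of these data known. Named were all members, called keratins (up to 6), up to 4 called genes of each list by absolute change, and the 5 genes most like Krt20 and Krt14. Tp63, Krt4, Dsg3's array values and Calb2 and Bnc1 were added after their values were seen. Alternatives changed normalization, centring, filters, variance model, weights, probe set choice and the replicate block, and left out each array in turn. Same-numbered arrays correlated at -0.11 to 0.10 in their deviations. Arrays of different numbers were not compared, so these values cannot show whether the numbers pair arrays. A shared number is not stated to mark a shared animal or day.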

Additional observations from a re-analysis of the deposited data

Results flagged for a closer look

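Krt17 in denervated replicate 2, at 5.30, lay far below the next lowest denervated array (5.78), a gap of 0.654 of the group's whole range. It was the only such value among the 18 combinations of a keratin and a group examined, where chance flags about 1 in 20 groups.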

How the results depend on the processing

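Of 187 values of the 9 keratins under the alternatives, 183 kept their direction and their side of the threshold. The calls of Krt14, Krt7, Krt8, Krt18, Krt19 and Krt20 held in all alternatives run, with changes of 1.18 to 1.63 for Krt14 and -1.91 to -1.67 for Krt20. The call of Krt15 relative to Cdh1 was lost in 8 alternatives. Krt13 gained a call in 2 alternatives relative to Cdh1 and in 4 relative to Krt8, the replicate block among them (adjusted p = 0.0387 and 0.0446). Called higher were 1 to 2 keratins when arrays were left out, with 2 (Krt17 added) without denervated replicate 2, and 5 to 6 were called lower (Krt15 added). Krt15 was also called with array weights (adjusted p = 0.0243) and among genes brighter than the median gene (0.0469). Among those genes 1 keratin was higher relative to Krt8, because the dim Krt17 was not tested. Differences that were not called changed sign around 0: Krt7 relative to Krt8 (-0.0573 to 0.0966 with arrays left out, -0.00132 after quantile normalization), Krt19 relative to Krt8 (-0.101 to 0.0470), Cdh1 relative to Krt8 (-0.0486 to 0.0878), Krt7 relative to Cdh1 (-0.0232 to 0.0404, and -0.0314 after quantile normalization) and Krt8 relative to Cdh1 (-0.0878 to 0.0486). With the replicate block, 1 keratin was called higher and 5 lower against sham, as without it, and Krt14 kept 1.35 (adjusted p = 0.00755). Over all genes 1561 to 2671 were called higher and 2476 to 3857 lower. The change relative to Krt5 was not run, for want of a Krt5 value. Dim genes such as Krt17, Krt13 and Dsg3 carry no detection call.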
